A study of Talinum fruticosum with 24 samples.

Results

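Rubisco is the enzyme that fixes CO2 in the Calvin-Benson cycle. It is built from large subunits encoded in the chloroplast genome and small subunits encoded by a nuclear family of near-identical RBCS genes. Rubisco activase (RCA), also nuclear, uses ATP to free the active sites of bound sugar phosphates. In crassulacean acid metabolism (CAM), CO2 is first taken up at night by phosphoenolpyruvate carboxylase and stored as malic acid, and Rubisco refixes it by day behind closed stomata. In Arabidopsis thaliana the transcripts of RBCS and RCA respond to light, and RCA is under control of the circadian clock.

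The genes described here were picked out by their Arabidopsis identifiers: RBCS1A (AT1G67090), RBCS1B (AT5G38430), RBCS2B (AT5G38420) and RBCS3B (AT5G38410), the small-subunit genes of Arabidopsis, and RCA (AT2G39730). Of these 5, RBCS1A, RBCS3B and RCA were among the 22079 identifiers analysed, all 3 passed the filter on low counts, and RBCS1B and RBCS2B were not analysed here. The plant is not Arabidopsis but Talinum triangulare (Talinum fruticosum in the sample records), which moves between C3 photosynthesis and CAM with its water supply. Reads were assigned to Arabidopsis identifiers, so reads of 1 Talinum small-subunit transcript can be spread over RBCS1A and RBCS3B, and several transcripts can fall on 1 identifier. Values of either RBCS identifier alone are therefore uncertain, and sums and ratios are given as well.

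Polyadenylated RNA of mature leaves was sequenced in 24 libraries, 3 biological replicates in each of 8 groups. All plants were kept well watered for 28 d and then went through 12 d of drought. CAM leaves were sampled at that point, and reC3 leaves after a further 2 d of re-watering, each at zeitgeber times of 6 h (midday, MD), 12 h (end of day, ED), 18 h (midnight, MN) and 24 h (end of night, EN). No group had never been droughted, so a difference between modes cannot be assigned to drought or to re-watering. MD and MN libraries came from an earlier series and ED and EN libraries were new, so each test at 1 time or of a step from MD to MN or ED to EN stays within 1 of these sets. The average over times and the interaction of mode and time use both sets, and orders of levels across all times also cross them.

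Libraries held 4310225 to 8756145 counts. RBCS1A, RBCS3B and RCA together took 3.13% (reC3 ED replicate 3) to 14.9% (reC3 EN replicate 1) of the counts of a library. By counts, which do not allow for transcript length, RBCS1A ranked between 1 and 3 among all identifiers in every library, RBCS3B between 2 and 6, and RCA between 1 and 18. Levels are in CPM, counts scaled to a common library size with TMM factors, of which the smallest was 0.608 (reC3 EN replicate 1) and the largest 1.43 (reC3 ED replicate 2). Some libraries stood apart. In reC3 EN replicate 1 the mean correlation with its partners was 0.941, the lowest of all, and in reC3 MD replicate 3 the 10 most abundant identifiers took 12.6% of counts against 23.5% and 20.3% in its partners. The reC3 EN libraries also disagreed on the CAM carboxylase PPC1, which stood at 1929, 9382 and 4979 CPM in replicates 1, 2 and 3 against 407 to 733 CPM in the other 9 reC3 libraries and 6337 to 16040 CPM in CAM. Replicate 2 lay within the CAM EN range of 7798 to 10030 CPM. The main differences that rest on reC3 EN replicate 1 or reC3 MD replicate 3 are therefore also given without that library. Of 5 markers fixed for green tissue only carbonic anhydrase CA1 was in the table, at 562 to 42330 CPM, and 2 of 4 root markers were, at a summed 1.57 to 13.1 CPM.

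RCA, the activase, followed the time of day in both modes, low in the light and high at night. In CAM it stood at 6143, 10311 and 5369 CPM in MD replicates 1, 2 and 3, at 9865, 7459 and 6390 CPM at ED, at 38979, 43517 and 33096 CPM at MN, and at 49735, 56523 and 60959 CPM at EN. Every night library of CAM was above every day library. In reC3 the replicates stood at 24390, 15853 and 10210 CPM at MD, 2399, 1543 and 1637 CPM at ED, 38993, 32488 and 35132 CPM at MN, and 67457, 69936 and 68458 CPM at EN. The same separation of day from night held in reC3, where the ED libraries were the lowest and the EN libraries the highest of all 24. Both separations join the earlier and the new library sets, and the share of all genes that showed them was not computed.

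Ordered by mean, RCA was highest in reC3 EN (68617 ± 1248 CPM, SD, n = 3), followed by CAM EN (55739 ± 5653), CAM MN (38531 ± 5225), reC3 MN (35538 ± 3271), reC3 MD (16818 ± 7139), CAM ED (7905 ± 1780), CAM MD (7274 ± 2658) and reC3 ED (1860 ± 470). The libraries of CAM MN and reC3 MN overlapped, as did those of CAM ED and CAM MD. The other neighbours in this order did not overlap. That held for 52.5% of genes between reC3 EN and CAM EN and for 54.9% between reC3 MN and reC3 MD. For the other steps of the order no share was computed. As a share of all counts, RCA rose from 0.220% to 0.319% in the reC3 ED libraries to 4.10% to 5.43% in the reC3 EN libraries. The highest group mean was 36.9 times the lowest in reC3 and 7.66 times the lowest in CAM.

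**Figure D1:**
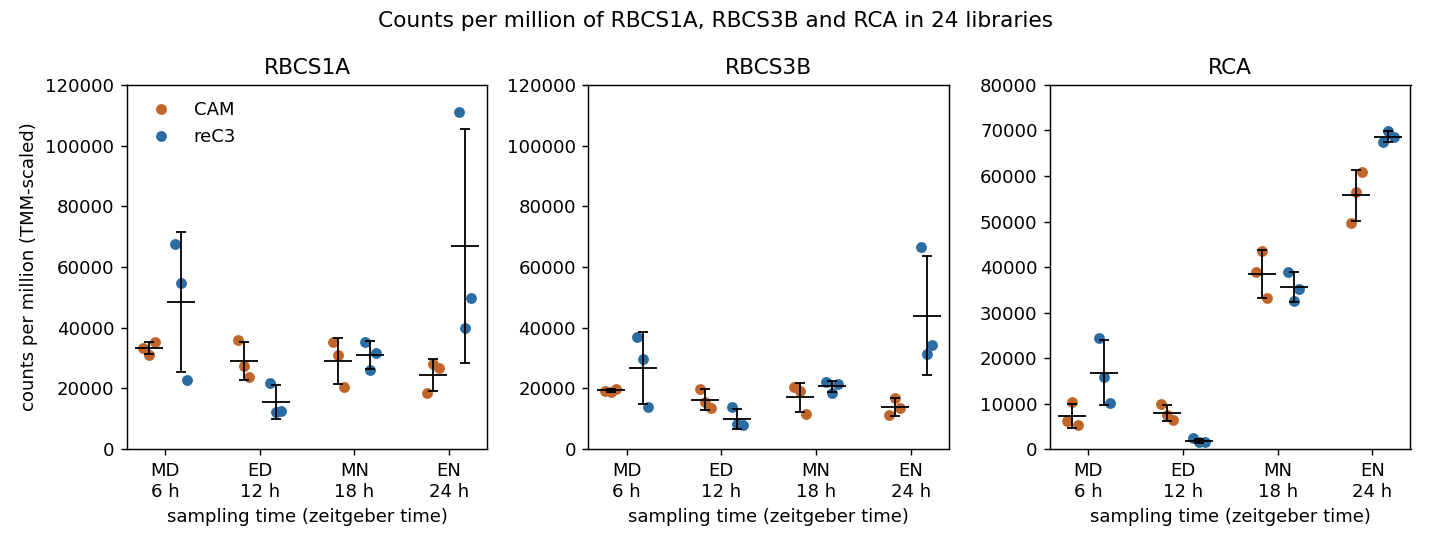
Counts scaled to a common library size with TMM factors (CPM, linear axes, the RCA axis ending lower) of RBCS1A, RBCS3B and RCA by sampling time. Points are libraries, horizontal ticks are means and bars are SD over 3 libraries. RCA is low at MD and ED and high at MN and EN in both modes, while the RBCS identifiers are spread most in reC3 MD and reC3 EN.

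From ED to EN, RCA rose in both modes and more in reC3. The log2 fold change was 2.82 ± 0.33 (SE) in CAM, a 7.05-fold rise (adjusted p = 1.32e-07, edgeR quasi-likelihood test), and 5.21 ± 0.37 in reC3, a 36.9-fold rise (adjusted p = 6.2e-11). The difference between these rises was itself past the threshold, at -2.39 ± 0.44 for CAM minus reC3 (95% interval -3.30 to -1.48, adjusted p = 0.000269, edgeR). The libraries of ED and EN did not overlap in either mode, as for 68.9% of genes in CAM and 57.6% in reC3. Across all genes, 63.7% were called between EN and ED in CAM (31.5% higher, 32.2% lower), 57.9% in reC3 (29.1% higher, 28.8% lower) and 36.2% for the difference. RCA had a larger rise than all but 98 of the 14065 genes tested in reC3 and all but 597 in CAM.

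From MD to MN the activase rose as well. In CAM the log2 fold change was 2.41 ± 0.32, a 5.30-fold rise (adjusted p = 1.85e-06, edgeR), and the libraries did not overlap, as for 63.0% of genes. In reC3 it was 1.08 ± 0.31, a 2.11-fold rise (adjusted p = 0.00725, edgeR), again without overlap, as for 54.9% of genes. Calls were made for 52.0% of genes in CAM (25.6% higher, 26.5% lower) and 43.4% in reC3 (21.7% higher and 21.7% lower). Without reC3 MD replicate 3 the reC3 rise was 0.82 (adjusted p = 0.0387, edgeR). Fitted on the compared groups alone it missed the threshold (1.03, adjusted p = 0.0686). The rise was larger in CAM by 1.33 ± 0.44 (adjusted p = 0.0317, edgeR, against 22.3% of genes called, 10.2% higher and 12.1% lower). This last call was lost on the compared groups alone (adjusted p = 0.0675) and without any 1 of 6 libraries, namely CAM MD replicates 1 and 3, CAM MN replicate 1, reC3 MD replicate 1 and reC3 MN replicates 2 and 3 (adjusted p = 0.0571 to 0.108).

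Set against reC3 at the same time, RCA in CAM was lower at MD, higher at ED, and showed no difference past the threshold at night. At MD it fell by 1.21 ± 0.31 on the log2 scale, 2.31-fold lower (adjusted p = 0.00311, edgeR), although CAM replicate 2 (10311 CPM) lay just above reC3 replicate 3 (10210 CPM). At MD the libraries of the modes did not overlap for 55.5% of genes. Without reC3 MD replicate 3 the MD difference was -1.46 (adjusted p = 0.000516, edgeR). At ED it was 4.25-fold higher in CAM (log2 fold change 2.09 ± 0.32, adjusted p = 1.81e-05, edgeR), with 221 of the 14065 genes showing a larger rise, and the libraries did not overlap, as for 58.7% of genes. The difference was 0.12 ± 0.31 at MN (95% interval -0.52 to 0.75, adjusted p = 0.791) and -0.30 ± 0.31 at EN (95% interval -0.94 to 0.34, adjusted p = 0.427). At EN every reC3 library was above every CAM library, and 52.5% of genes had no overlap of libraries in one direction or the other. These differences between modes varied with time (interaction adjusted p = 4.68e-05, edgeR), and averaged over the 4 times they came to 0.17 ± 0.15 (adjusted p = 0.329).

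The small subunits behaved differently. In CAM neither of the steps tested, MD to MN or ED to EN, passed the threshold. In reC3 their means were lowest at ED and highest at EN. For RBCS1A the second of these rested on reC3 EN replicate 1, without which the EN mean was 44871 CPM, below the MD mean of 48363 CPM, while for RBCS3B it was 32734 CPM against 26807 CPM at MD. RBCS1A stood at 33298, 31161 and 35179 CPM in CAM MD replicates 1, 2 and 3, at 36028, 27498 and 23634 CPM at ED, at 35381, 30996 and 20602 CPM at MN, and at 18531, 28198 and 26635 CPM at EN. Its CAM libraries thus spanned 18531 to 36028 CPM, and neighbouring groups overlapped. The CAM groups with the highest and lowest means, MD (31161 to 35179 CPM) and EN (18531 to 28198 CPM), were not compared by a test. In reC3 it stood at 67658, 54584 and 22846 CPM at MD, 21862, 12387 and 12415 CPM at ED, 35277, 26088 and 31621 CPM at MN, and 111076, 39970 and 49773 CPM at EN. The reC3 libraries spanned 12387 to 111076 CPM, with replicate 1 far above its partners at EN and replicate 3 below them at MD.

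RBCS3B followed a similar course. In CAM it stood at 19247, 18890 and 19959 CPM in MD replicates 1, 2 and 3, at 19988, 15523 and 13421 CPM in the ED libraries, at 20513, 19013 and 11680 CPM in the MN libraries, and at 11179, 16922 and 13475 CPM in the EN libraries. Its CAM group means ran from 13858 ± 2891 CPM at EN to 19365 ± 544 CPM at MD, with the replicates of each time closest at MD. These CAM groups (11179 to 16922 CPM at EN, 18890 to 19959 CPM at MD) were not compared by a test. In reC3 the values were 36988, 29670 and 13764 CPM for MD (mean 26807 ± 11870), 13777, 8261 and 7997 CPM for ED (10012 ± 3264), 21995, 18600 and 21605 CPM for MN (20733 ± 1858), and 66568, 31216 and 34253 CPM for EN (44012 ± 19590). Replicate 1 was again far above its partners at EN and replicate 3 below them at MD. Over the 24 libraries the log2 CPM of both RBCS identifiers correlated with r = 0.979 (Spearman rho 0.967), as a description of libraries that may split the same transcripts' reads between them. When all groups were ordered by mean, each RBCS identifier overlapped its neighbour at every step, from reC3 EN at the top to reC3 ED at the bottom. The highest group mean was 1.36 times the lowest in CAM and 4.30 times in reC3 for RBCS1A, and 1.40 and 4.40 times for RBCS3B.

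From ED to EN both RBCS identifiers rose in reC3. RBCS1A rose 4.30-fold (log2 fold change 2.11 ± 0.41, adjusted p = 0.000129, edgeR) and RBCS3B 4.40-fold (2.14 ± 0.37, adjusted p = 3.12e-05), with no overlap of libraries, as for 57.6% of genes. Without reC3 EN replicate 1 the rises were 1.53 (adjusted p = 0.00115) and 1.71 (adjusted p = 0.000186), and without reC3 EN replicate 2 they were 2.37 (adjusted p = 4.65e-05) and 2.33 (adjusted p = 2.02e-05). In CAM the same step measured -0.25 ± 0.39 (95% interval -1.06 to 0.56, adjusted p = 0.593) for RBCS1A and -0.24 ± 0.35 (-0.96 to 0.49, adjusted p = 0.572) for RBCS3B. Scaled by library totals alone, which takes the median of all genes to -0.46 in this step, they fell by 0.69 (adjusted p = 0.0414) and 0.68 (adjusted p = 0.0254). The difference in the ED to EN step between modes passed for both, at -2.35 ± 0.56 for RBCS1A (adjusted p = 0.00239, edgeR) and -2.37 ± 0.50 for RBCS3B (adjusted p = 0.000913). Without reC3 EN replicate 1 it was -1.78 (adjusted p = 0.0083) and -1.95 (adjusted p = 0.00246). Without reC3 EN replicate 2 it was -2.62 (adjusted p = 0.000808) and -2.57 (adjusted p = 0.00046). In all, 3 of 3 identifiers were called in this difference, against 36.2% of genes, and all were lower, against 19.0% of genes lower and 17.2% higher. Since RBCS1A and RBCS3B may split reads of the same transcripts, their calls are not independent.

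From MD to MN neither RBCS identifier passed the threshold in either mode. RBCS1A measured -0.20 ± 0.39 in CAM (adjusted p = 0.70) and -0.64 ± 0.39 in reC3 (adjusted p = 0.196), and RBCS3B -0.18 ± 0.35 (adjusted p = 0.689) and -0.37 ± 0.35 (adjusted p = 0.415), all with overlapping libraries. Under library totals alone the sign turned for RBCS1A in CAM (0.11) and for RBCS3B in CAM (0.12) and reC3 (0.11). Without reC3 MD replicate 3, RBCS1A in reC3 was past the threshold (-0.98, adjusted p = 0.0414).

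Between the modes, the RBCS identifiers differed at EN. RBCS1A in CAM was 2.74-fold lower (log2 fold change -1.45 ± 0.40, adjusted p = 0.00403, edgeR) and RBCS3B 3.18-fold lower (-1.67 ± 0.36, adjusted p = 0.000517), and their CAM libraries all lay below the reC3 ones. At this time 53.3% of genes were called, 29.2% lower, and 52.5% had libraries that did not overlap. Without reC3 EN replicate 1 the RBCS1A call was lost (-0.88, adjusted p = 0.0537), while RBCS3B stayed past it (-1.24, adjusted p = 0.00472). Without reC3 EN replicate 2 they measured -1.72 (adjusted p = 0.00132) and -1.86 (adjusted p = 0.000286). Within reC3 EN the library with the least PPC1 (replicate 1) had the most RBCS1A and RBCS3B, and the one with the most PPC1 (replicate 2) the least. Among the summed markers of other leaf tissues, those of epidermis and guard cells also separated the modes at EN. The 4 epidermis markers stood at 472 to 506 CPM in CAM and 792 to 870 CPM in reC3. The 6 guard cell markers stood at 502 to 509 CPM in CAM and 251 to 311 CPM in reC3. The sums of the vascular markers and of the dividing cell markers overlapped between modes. Within the lists the members moved both ways. Of the vascular markers 1 was called higher in CAM and 5 lower, and of the dividing cell markers 1 higher and 3 lower. Of the guard cell markers, 2 were called higher in CAM (GORK, 1.36, and OST1, 1.02) and 3 lower (KAT2, -1.45, MYB60, -1.08, and HT1, -0.48), and of the epidermis markers 1 was called higher (ANL2, 0.26) and 2 lower (LACS2, -4.21, and FDH, -0.48). Their part in these differences was not tested. In whole leaves, fewer cells of a type and less RNA per cell cannot be told apart.

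At the other times the RBCS identifiers did not pass. At MD, where 44.0% of genes were called and RCA was the 1 call among 3 identifiers, RBCS1A measured -0.54 ± 0.39 (95% interval -1.35 to 0.27, adjusted p = 0.273) and RBCS3B -0.47 ± 0.35 (adjusted p = 0.290). These values depended on single reC3 libraries: without reC3 MD replicate 3 they were -0.88 (adjusted p = 0.0677, edgeR) and -0.78 (adjusted p = 0.0685), and without reC3 MD replicate 1 -0.22 (adjusted p = 0.705) and -0.16 (adjusted p = 0.756). Without both reC3 MD replicate 3 and reC3 EN replicate 1, a pair chosen after seeing the data, they were past the threshold (adjusted p = 0.0169 and 0.0234). Of this pair, reC3 EN replicate 1 is outside the MD comparison and changes only the estimated spread. At ED, where 45.4% were called and again only RCA of the 3, RBCS1A measured 0.90 ± 0.39 (95% interval 0.085 to 1.72, adjusted p = 0.0666) with no overlap of libraries, as for 58.7% of genes. RBCS3B measured 0.70 ± 0.35 (adjusted p = 0.108). RBCS1A at ED lay near the threshold and was past it with the replicate number as a block (0.92, adjusted p = 0.0341), with DESeq2 (0.90, adjusted p = 0.035) and on the compared groups alone (0.87, adjusted p = 0.0345). Of 24 fits without 1 library it passed in 3: without reC3 ED replicate 1 (1.23, adjusted p = 0.0304), reC3 EN replicate 1 (0.90, adjusted p = 0.0297) or reC3 MD replicate 3 (0.90, adjusted p = 0.0349). Of these, reC3 EN replicate 1 and reC3 MD replicate 3 are outside the ED comparison. In the other fits adjusted p reached 0.202, and library totals alone gave 0.68 (adjusted p = 0.0648). RBCS3B at ED passed in 1 of 24 such fits, without reC3 ED replicate 1 (1.01, adjusted p = 0.044), with adjusted p up to 0.295 in the others. At MN none of the 3 was called by edgeR or DESeq2, none had an unadjusted p under 0.05 in edgeR, and 38.6% of genes were called. The libraries of the modes overlapped for all 3, whereas 56.4% of genes had libraries that did not. RBCS1A measured -0.10 ± 0.39 there and RBCS3B -0.28 ± 0.35, against 0.12 for RCA.

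**Figure D2:**
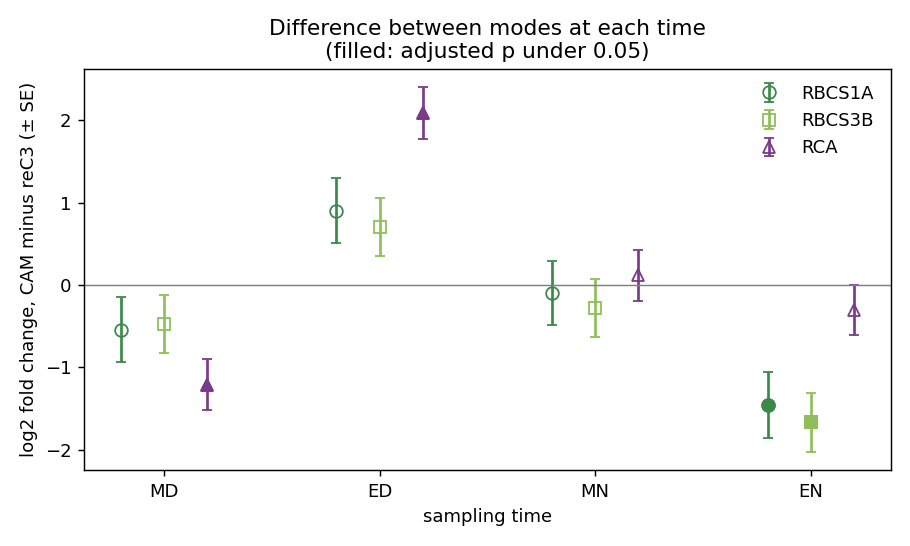
Log2 fold change of CAM minus reC3 at each sampling time for RBCS1A, RBCS3B and RCA, with SE from the edgeR fit to 24 libraries; filled symbols have adjusted p under 0.05. RCA is filled at MD (-1.21) and ED (2.09), the RBCS identifiers at EN (-1.45 and -1.67), and no symbol is filled at MN.

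Averaged over the 4 times, RBCS3B was lower in CAM by a small margin (-0.43 ± 0.18, adjusted p = 0.0368, edgeR) and RBCS1A was not called (-0.30 ± 0.20, adjusted p = 0.189), so that 1 of 3 identifiers passed where 64.8% of all genes did, 32.3% higher and 32.5% lower. The RBCS3B call was lost without EN (-0.015, adjusted p = 0.955) and in 13 of the 24 fits without 1 library (adjusted p up to 0.0828). Those libraries were CAM ED 2 and 3, CAM EN 1 and 3, CAM MD 1 and 2, CAM MN 3, reC3 ED 1, reC3 EN 1, reC3 MD 1 and 2, and reC3 MN 1 and 3. Without EN, RBCS1A turned to 0.088 (adjusted p = 0.757). The interaction of mode and time passed for RBCS1A (adjusted p = 0.0112, edgeR), for RBCS3B (adjusted p = 0.00493) and for RCA, 3 of 3 against 46.8% of genes, with the calls of RBCS1A and RBCS3B again not independent. Between the most positive and the most negative time, the difference between modes spanned 2.35 for RBCS1A and 2.37 for RBCS3B, from ED to EN, and 3.30 for RCA, from ED to MD.

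Summing the RBCS identifiers before the fit removes the question of how their shared reads were divided. The sum was 38310 ± 7860 CPM in CAM EN and 111000 ± 58100 CPM in reC3 EN, and 45360 ± 9700 and 25570 ± 8720 CPM in CAM ED and reC3 ED. Its fitted log2 difference between modes was -0.52 ± 0.38 at MD and 0.83 ± 0.38 at ED. By night it was -0.17 ± 0.38 at MN and -1.53 ± 0.39 at EN. These lie close to the values of the single identifiers. Without reC3 EN replicate 1 the EN value was -1.02 ± 0.37, and without reC3 MD replicate 3 the MD value was -0.84 ± 0.36.

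The balance of activase to small subunit, taken as RCA counts over the summed RBCS counts of the same library, does not depend on how libraries are scaled. It was 0.0673 to 0.0802 in the reC3 ED libraries, the lowest of all, and 0.172 to 0.176 in the CAM ED libraries. At MD it was 0.0974 to 0.206 in CAM and 0.188 to 0.279 in reC3. At MN it reached 0.697 to 1.03 in CAM and 0.660 to 0.727 in reC3. At EN it was 1.25, 1.52 and 1.67 in the CAM libraries and 0.380, 0.815 and 0.983 in the reC3 libraries, the lowest being replicate 1. The ratio was thus higher at night than by day in every library of each mode, and at ED and EN every CAM library was above every reC3 library, while at MD and MN the modes overlapped. Transcript lengths do not enter, so the ratio compares libraries and does not say which transcript was the more abundant. Log2 CPM of RBCS1A and RCA correlated with r = -0.372 (rho -0.371) over the 12 CAM libraries and with r = 0.792 (rho 0.699) over the 12 reC3 libraries, given as a description of libraries that share groups and scaling.

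The split of counts between the RBCS identifiers moved little. RBCS1A took 56.2% to 66.4% of the summed RBCS counts over the 24 libraries. Its share was 63.8% to 64.3% in CAM ED against 60.0% to 61.3% in reC3 ED, and 62.0% to 63.8% in CAM MN against 58.4% to 61.6% in reC3 MN, without overlap at either time. At MD the shares were 62.3% to 63.8% in CAM and 62.4% to 64.8% in reC3. At EN they were 62.4% to 66.4% in CAM and 56.2% to 62.5% in reC3, with replicate 2 lowest and replicate 1 highest. Which Talinum transcripts these identifiers stand for was not resolved here.

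**Figure D3:**
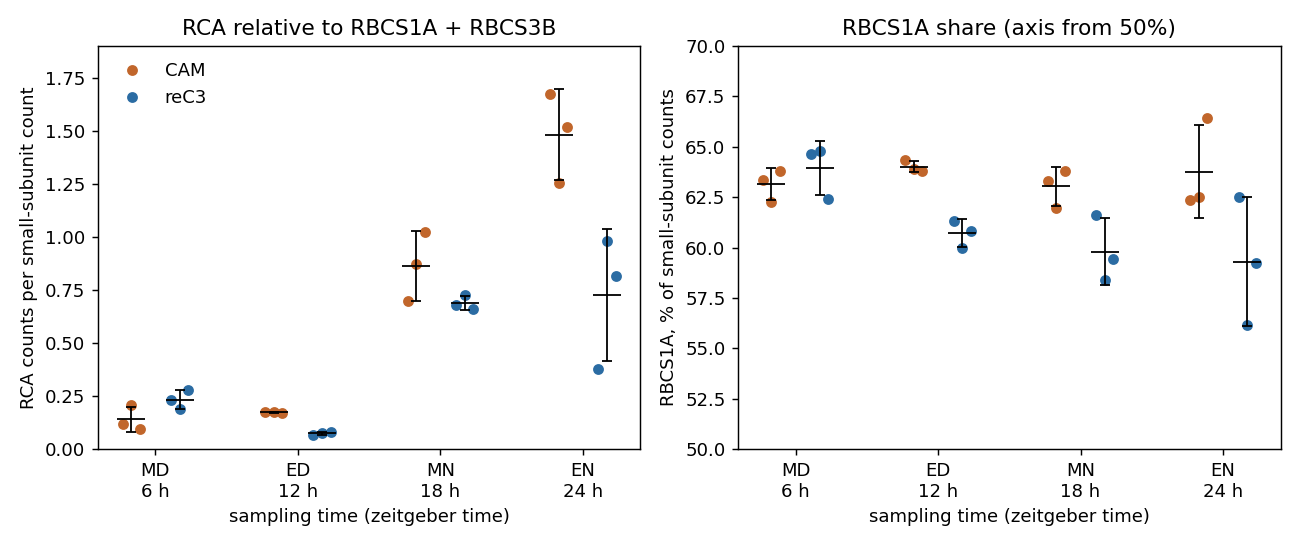
Left, RCA counts divided by summed RBCS1A and RBCS3B counts, and right, RBCS1A as a percentage of that sum (on an axis that does not start at 0), by sampling time. Points are libraries, horizontal ticks are means and bars are SD over 3 libraries. The ratio is highest in CAM EN (mean 1.48) and lowest in reC3 ED (mean 0.0741), and the RBCS1A share lies between 56.2% and 66.4%.

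Around the members, the Calvin-Benson cycle list held 20 genes, of which 15 were tested. They were enzymes of the steps that reduce 3-phosphoglycerate and regenerate the CO2 acceptor, and the CP12 genes, which encode regulators and not enzymes. At EN 12 of them were lower in CAM and none higher (median log2 fold change -1.04, against -0.08 over all genes), where 29.2% of genes were lower and 24.1% higher. Without reC3 EN replicate 1 the count was 11 (median -0.84). At ED 7 were higher and none lower (median 0.43, against 0.017), where 21.5% of genes were higher and 23.9% lower. At MD 3 were higher and 3 lower, against 22.7% and 21.3% of genes. At MN none was called by edgeR in either direction, 3 had an unadjusted p under 0.05 and DESeq2 called 3, against 18.1% of genes higher and 20.5% lower. At MN 2 were higher and 1 lower when either reC3 EN replicate 1 or reC3 MD replicate 3 was left out. From MD to MN none rose and 5 fell in CAM, and 1 rose and 8 fell in reC3, where 25.6% and 21.7% of genes rose and 26.5% and 21.7% fell. From ED to EN 12 rose and 2 fell (CP12-1, -2.35, and CP12-2, -2.39) in reC3, against 29.1% and 28.8% of genes. In CAM 5 rose, near the 31.5% of genes that did, and 3 fell (CP12-1, -2.08, CP12-2, -2.03, and CFBP2, -1.49), against 32.2%. The ED to EN step differed between modes for 13 of 15, all lower in CAM, where 19.0% of genes were. In the average over times 2 of 15 were higher, fewer than the 32.3% of all genes, and 5 were lower, near the 32.5%. Those with the smallest adjusted p in each direction were the triose-phosphate isomerase PDTPI (0.75 ± 0.17, adjusted p = 0.000616, edgeR) and the aldolase FBA1 (0.32 ± 0.13, adjusted p = 0.0325), both higher in CAM, and phosphoribulokinase PRK (-0.79 ± 0.15, adjusted p = 9.52e-05) and the glyceraldehyde-phosphate dehydrogenase subunit GAPB (-0.74 ± 0.16, adjusted p = 0.000362), both lower.

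The Rubisco assembly list held 15 genes: chaperonins, assembly factors, proteins that act on the large subunit or its RNA, and the large subunit (RBCL) itself. Of these 13 were tested, RBCL among them. At ED 7 were higher and 1 lower in CAM (median 1.1), against 21.5% and 23.9% of all genes. At EN none was higher and 7 were lower (median -1.20), against 24.1% and 29.2%, and 6 were lower (median -0.24) without reC3 EN replicate 1. At MD 4 were higher and 1 lower, against 22.7% and 21.3%, and 2 were higher and 2 lower without reC3 MD replicate 3. At MN none was higher and 2 were lower, against 18.1% and 20.5%. In the average 4 were higher and 4 lower, near the 32.3% and 32.5% of all genes, and 7 were higher and 3 lower without reC3 EN replicate 1. MRL1, which stabilises the RNA of the large subunit (0.66 ± 0.16, adjusted p = 0.00127, edgeR), and the assembly factor BSD2 (0.44 ± 0.13, adjusted p = 0.00557) were higher. The chaperone RBCX2 (-0.80 ± 0.13, adjusted p = 1.26e-05) and CBBY, a phosphatase that degrades an inhibitor of Rubisco (-0.80 ± 0.15, adjusted p = 0.000101), were lower.

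**Figure D4:**
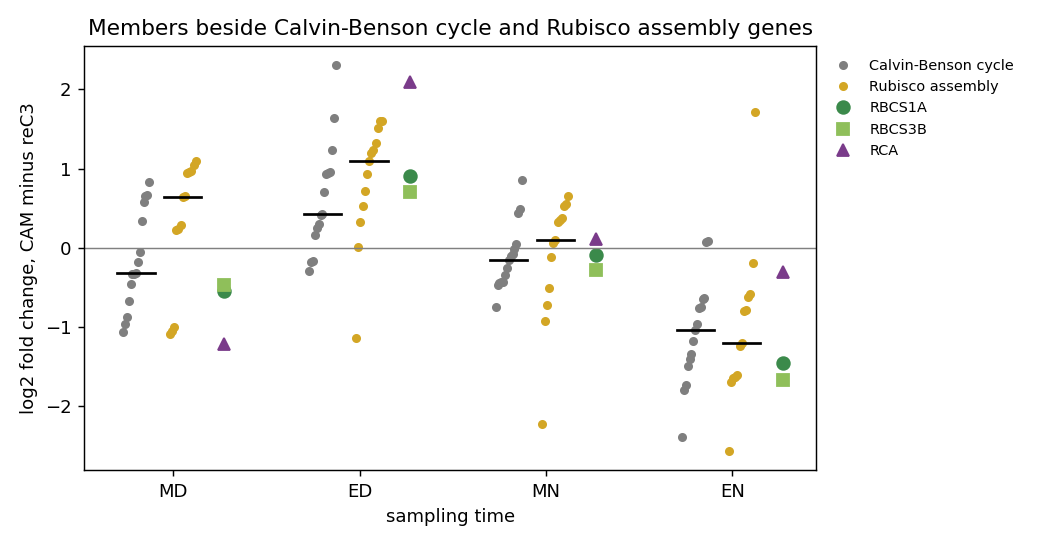
Log2 fold change of CAM minus reC3 at each time for the tested genes of the Calvin-Benson cycle list (15) and the Rubisco assembly list (13), with black lines at the medians, beside RBCS1A, RBCS3B and RCA. At EN the list medians are -1.04 and -1.20 and the RBCS identifiers lie below both, while RCA is at -0.30; at ED RCA (2.09) lies above all but 1 of the list genes.

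Among 8982 genes with a mean of at least 10 CPM, those whose log2 CPM followed RCA most closely over the 24 libraries were the chloroplast calcium sensing receptor (AT5G23060, r = 0.956), AT1G44000 (r = 0.956), the lipid-transfer family protein AT4G00165 (r = 0.951), the small GTP-binding protein AT5G08650 (r = 0.950) and peroxin 11B (AT3G47430, r = 0.939). Within modes their r was 0.879 to 0.980 over 12 CAM libraries and 0.955 to 0.987 over 12 reC3 libraries. The closest to RBCS1A were the phosphoglycerate kinase AT1G56190 (r = 0.961), the light-harvesting-like protein LIL3:1 (AT4G17600, r = 0.945), the fructose bisphosphatase AT3G54050 (r = 0.926), ribose 5-phosphate isomerase AT3G04790 (r = 0.925) and the cytosolic phosphoglycerate kinase AT1G79550 (r = 0.914). For these r was 0.664 to 0.734 in CAM and 0.962 to 0.987 in reC3. Libraries share groups and scaling, so these values describe likeness only.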

How the data were processed

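The raw read counts per Arabidopsis identifier were deposited by the authors as 1 table, with no scaling per the file headers. CASAVA 1.8.2 and the TAIR10 annotation are named in the submitters' processing notes. Which aligner and counter made them is not given in the sources used here, nor is the strand setting. A further 40 value columns were not used. Here, edgeR 4.0.16 (R 4.3.3) was run on the counts: filterByExpr kept 14065 of 22079 identifiers, TMM gave the scaling factors, and 1 robust quasi-likelihood model with 8 group means took in the 24 libraries. All adjusted p are Benjamini-Hochberg values over the genes tested, with calls at 0.05. The SE is the log2 fold change over the root of its F statistic, and intervals use the fit's degrees of freedom. With 3 libraries a group, the p-values set a difference against the spread between replicate libraries. That spread was estimated over all 8 groups and partly across genes, so groups outside a comparison also enter it. The fit was tested on simulated counts. Named genes are the members, up to 2 called genes in each direction from each list in the average, and the 5 most correlated genes with at least 10 CPM (log2 CPM with prior count 2). Members and lists were chosen with earlier results of these data known. DESeq2 1.42.0, other scalings, no filter, a replicate block, fewer groups, summed small subunits and libraries left out were tried as alternatives.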

Additional observations from a re-analysis of the deposited data

Results flagged for a closer look

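For all 3 identifiers the difference between CAM and reC3 differed between times by a test of the interaction, spanning 2.35 on the log2 scale for RBCS1A (adjusted p = 0.0112, edgeR quasi-likelihood test), 2.37 for RBCS3B (adjusted p = 0.00493) and 3.30 for RCA (adjusted p = 4.68e-05). The step from ED to EN differed between modes, CAM minus reC3, by -2.35 for RBCS1A (adjusted p = 0.00239, edgeR), -2.37 for RBCS3B (adjusted p = 0.000913) and -2.39 for RCA (adjusted p = 0.000269). The step from MD to MN differed by 1.33 for RCA (adjusted p = 0.0317, edgeR), a call lost without any 1 of 6 libraries.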

How the results depend on the processing

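Each comparison was recomputed under the alternatives, and the number of the 3 identifiers called is given here first. At ED it went from 1 to 2 with DESeq2, on the compared groups alone and with the replicate block, and lay between 1 and 3 without 1 library. At EN it lay between 1 and 2 without 1 library, and in the average between 0 and 1, and it was 0 in the average without EN. From ED to EN in CAM it went from 1 to 3 under library totals alone. From MD to MN in reC3 it went from 1 to 0 on the compared groups alone and lay between 1 and 2 without 1 library. For the difference of the MD to MN step between modes it went from 1 to 0 on the compared groups alone, and between 0 and 1 without 1 library. Without both reC3 EN replicate 1 and reC3 MD replicate 3, chosen after seeing the data, it was 3 at MD, 3 at ED and 3 from MD to MN in reC3. Directions turned only for values that were not called: RBCS1A in the average without EN (0.088), RBCS1A (0.11) and RBCS3B (0.12) from MD to MN in CAM and RBCS3B (0.11) in reC3 under library totals, RBCS1A at MN (-0.26 to 0.0996 without 1 library), RBCS3B from MD to MN in CAM (-0.33 to 0.030), and its difference between modes (-0.12 to 0.501). The cause was not tested. The calls of RCA in ED to EN, in MD and ED between modes, in MD to MN in CAM and in the interaction held under every alternative run. Library totals alone took the median of all genes to -0.97 from ED to EN in reC3, where RCA measured 4.25, RBCS1A 1.08 and RBCS3B 1.12. They also moved the split of higher and lower calls: 1766 and 4098 at ED (3025 and 3363 with TMM), 4541 and 2742 at EN (3389 and 4112), 5049 and 2321 from MD to MN in CAM (3597 and 3722), 5413 and 1555 in reC3 (3051 and 3048), 2648 and 6248 from ED to EN in CAM (4432 and 4524), 1508 and 8946 in reC3 (4096 and 4054), and 4265 and 1267 for its difference (2424 and 2666). The labels do not say that a replicate number marks a shared batch. Deviations of same-numbered pairs correlated by 0.0233 on average (-0.20 to 0.373), against -0.0118 for pairs with other numbers. Of the same-numbered pairs 16 of 84 were over 0.1, and 10 of 24 libraries matched their own number best. Whether same-numbered replicates shared a batch was not tested. The block changed no call but RBCS1A at ED (0.92, adjusted p = 0.0341, edgeR). Depth was not a limit for the 3 identifiers, each with at least 10013 counts in every library.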

Other observations

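The large subunit of Rubisco (RBCL, ATCG00490) is a chloroplast gene, and chloroplast transcripts are mostly not polyadenylated, so these libraries hold only a small part of its RNA. It stood at 39.0, 47.9 and 39.7 CPM in CAM MD replicates 1, 2 and 3 and at 98.1, 81.6 and 83.2 CPM in reC3 MD, without overlap, as for 55.5% of genes. At MN it stood at 301, 39.6 and 7.85 CPM in CAM and 124, 37.0 and 75.9 CPM in reC3. At ED the range was 15.3 to 132 CPM in CAM and 19.1 to 55.4 CPM in reC3, and at EN 28.4 to 293 and 25.3 to 57.7 CPM. No difference between modes passed (adjusted p = 0.142 to 0.672, edgeR quasi-likelihood test). Its CV between replicates ran from 10.4% in reC3 MD to 138% in CAM MN.

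Carbonic anhydrase CA1, the 1 green tissue marker in the table, was also low in reC3 ED (562 to 2918 CPM against 4241 to 12110 CPM in CAM ED) and high in reC3 EN (10240 to 42330 CPM against 7035 to 10010 CPM in CAM EN). The libraries did not overlap at ED, as for 58.7% of genes, or narrowly at EN, as for 52.5%. CAM minus reC3 was 2.65 at ED (adjusted p = 0.00123, edgeR) and -1.49 at EN (adjusted p = 0.0361). It was not called at MD (-0.57, adjusted p = 0.435) or MN (0.44, adjusted p = 0.575).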
